A study of Rattus norvegicus with 42 samples.

Results

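A set of 8 genes was followed through the culture of rat metanephric mesenchyme: the metallothionein gene Mt2A and 7 genes known as glucocorticoid targets, Tsc22d3, Fkbp5, Sgk1, Per1, Zbtb16, Klf9 and Dusp1. They were taken by gene symbol from the array's probe table, with 1 probe set per gene, the one with the highest mean over all arrays. A probe set was found for 7 of the 8, out of 14218 genes with one, and all 7 were among the 11388 genes whose signal was high enough to test. Zbtb16, a zinc finger repressor, had no probe set in that table and was not analysed here.

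The tissue was dissected from embryos at embryonic day 13.5 and freed of the ureteric bud, the epithelial branch that induces it in the embryo, with needles after a short digestion in trypsin and DNase. Fresh mesenchyme went straight to RNA isolation. All cultures shared 1 medium, which held dexamethasone, a synthetic glucocorticoid, at 5 µg/ml, together with insulin, transferrin, selenium, prostaglandin, the thyroid hormone T3, an FGF and a TGF, on collagen-coated filters. Uninduced control cultures were taken on days 1 and 2. Cultures with an inducer, the cytokine LIF, the lipocalin NGAL or a fraction named ANX, were taken on days 1, 2, 3, 4, 5 and 7. The composition of ANX was not stated in the labels. Each of the 21 groups had 2 biological replicates, so there were 42 arrays. No culture lacked dexamethasone and no fresh sample had it, so its effect, that of the other medium components and that of culture itself cannot be told apart.

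Glucocorticoids bind a cytoplasmic receptor that is held by chaperones, moves to the nucleus and binds DNA elements near its target genes. Tsc22d3 (GILZ) and Dusp1 are known anti-inflammatory targets, and Fkbp5 is a co-chaperone that lowers the receptor's affinity for hormone. Metallothioneins are small cysteine-rich proteins that bind zinc, copper and cadmium, and their genes are known to respond both to metals, through the transcription factor MTF1, and to glucocorticoids.

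The promoters of Mt2A and Dusp1, the genes that moved farthest up and down against fresh tissue, are shown because each holds known response motifs for other signals. Both are from RefSeq on GRCr8, and run 5′ to 3′ from 250 bases before to 50 bases after the start site. The Mt2A window is chr19:10838659-10838958 on the minus strand, with its 4 metal response elements (TGCACNC or TGCGCNC, either strand) in capitals. The Dusp1 window is chr10:17184603-17184902 on the plus strand, with the cAMP response element TGACGTCA and an upstream short element TGACG in capitals.
Mt2A: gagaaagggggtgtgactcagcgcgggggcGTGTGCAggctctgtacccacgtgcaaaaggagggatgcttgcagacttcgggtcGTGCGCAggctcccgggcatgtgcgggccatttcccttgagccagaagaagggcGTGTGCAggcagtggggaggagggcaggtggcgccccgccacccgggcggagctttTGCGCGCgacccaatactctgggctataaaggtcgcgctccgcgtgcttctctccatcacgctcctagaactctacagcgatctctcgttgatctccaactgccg
Dusp1: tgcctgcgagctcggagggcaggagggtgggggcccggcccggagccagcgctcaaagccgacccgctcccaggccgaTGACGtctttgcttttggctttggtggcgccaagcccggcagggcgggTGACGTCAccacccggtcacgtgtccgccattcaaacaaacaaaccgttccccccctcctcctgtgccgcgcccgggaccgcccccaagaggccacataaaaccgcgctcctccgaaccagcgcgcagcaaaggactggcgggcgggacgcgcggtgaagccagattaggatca
The 4 elements of Mt2A begin at -220, -165, -111 and -55 from the start site, the first 3 on the other strand. Of 33469 RefSeq promoter windows of 300 bases, 24.2% held at least 1 such element and 0.439% held 4 or more. The element TGACGTCA of Dusp1 begins at -124 and was found in 1.83% of windows, and the short element TGACG, which overlaps it on both strands, in 21.2%. A metal response match at -4 of Dusp1 was left in lower case. The E-box CACGTG was present in both windows, at -202 and -107, and in 6.42% of all. A glucocorticoid response element, read as the sites AGAACA and TGTTCT 3 bases apart with up to 2 mismatches, was in none of the windows of the 7 genes that had one, and in 1.87% of all windows. A match describes letters only, and no match says that these letters are not in this window.

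Levels are log2 RMA intensities, and a gene was called when its Benjamini-Hochberg adjusted p over all genes was under 0.05 in a limma fit over all arrays. Array medians ran from 83.3 to 88.4 in intensity, and replicates correlated at 0.936 to 0.995 across genes. As for the tissue itself, the 10 measured nephron progenitor markers averaged 9.03 and 9.17 in the fresh arrays and from 7.69 to 9.16 in cultures, while Six2, Cited1 and Osr1 had no probe set. Endothelial markers averaged 7.53 and 7.54 in fresh arrays and 5.57 to 6.23 on day 7, and erythroid markers 9.29 and 9.46 against 5.41 to 5.69. In bulk tissue, fewer cells of a type and less RNA per cell cannot be told apart. The dap spike-in's log2 3'/5' ratio, a sign of how completely RNA was labelled, had a median of 1.07 in fresh arrays, 1.01 on day 1, 2.00 on day 2 and 1.65 on day 7. The part of either in the results was not tested beyond the fit with this ratio as a covariate.

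Mt2A rose in culture and was higher on day 7 than on day 1 under each inducer. Its group mean went from 9.48 to 9.41 under LIF between days 1 and 2. Under NGAL it went from 9.15 to 8.69 between days 2 and 3. Over all cultures its level on day 2 was 0.48 above that of day 1, which was not called. In fresh tissue its level was 6.84 and 6.86. Uninduced cultures stood at 8.64 and 8.88 on day 1 and at 9.16 and 9.58 on day 2. Every cultured array was thus above both fresh arrays, the lowest of 40 at 8.04. All 40 cultured arrays lay above both fresh ones for 5.71% of all genes and below them for 5.22%. Under LIF the replicates were at 9.65 and 9.31 on day 1, 9.38 and 9.43 on day 2, 10.65 and 10.13 on day 3, 11.01 and 11.22 on day 4, 11.77 and 11.78 on day 5, and 12.84 and 11.79 on day 7. Under NGAL they were at 8.25 and 8.04, 9.50 and 8.79, 8.83 and 8.55, 8.37 and 9.40, 9.36 and 9.45, and 10.29 and 10.24 on the same days. Under ANX they were at 9.19 and 8.58, 9.01 and 9.57, 9.92 and 10.36, 9.93 and 11.28, 10.50 and 12.04, and 11.19 and 11.59. NGAL had the lowest group mean of the cultures on every day, and the ANX replicates lay up to 1.54 apart. The order of the 21 group means ran from fresh (6.85) to LIF on day 7 (12.31), a 44.0-fold span, and of 20 gaps between neighbours 5 exceeded the pooled replicate SD of 0.45.

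**Figure D1:**
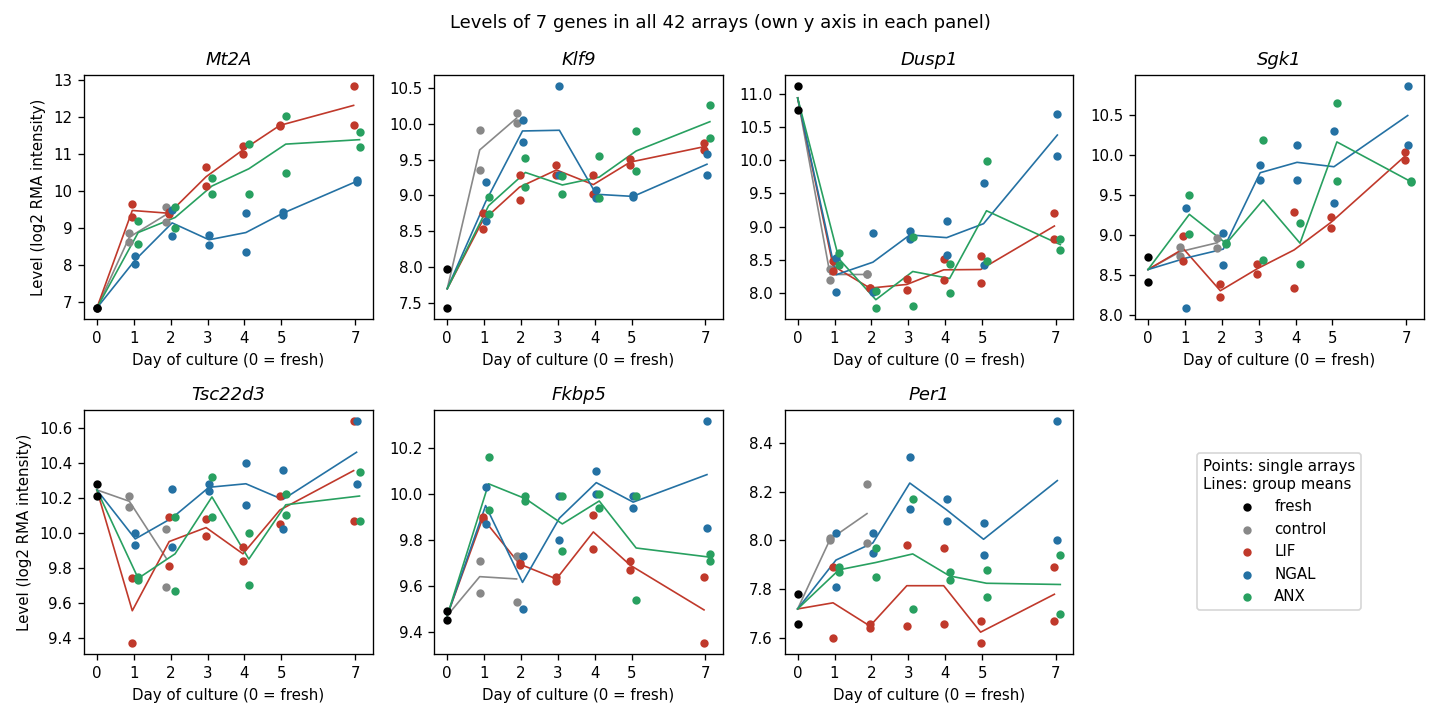
Log2 RMA intensity of the 7 genes (y axis, own range in each panel) by day of culture (x axis, fresh tissue at 0); points are single arrays and lines group means, coloured by culture. Mt2A climbed from 6.85 in fresh tissue to 12.31 under LIF on day 7, Dusp1 fell from 10.94 to between 7.77 and 8.91 on days 1 and 2, and the group means of Tsc22d3, Fkbp5 and Per1 spanned 1.87-fold, 1.54-fold and 1.53-fold.

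Against fresh tissue, the mean of all cultures of day 1 was higher by 1.97 for Mt2A (SE 0.34, limma adjusted p = 0.000265), with 4 of the 7 genes called beside 13.0% of all genes tested. The difference was 2.45 on day 2, 2.89 on day 3, 3.35 on day 4, 3.96 on day 5 and 4.47 on day 7 (SE 0.35, adjusted p = 9.97e-10), a 22.2-fold higher level. These comparisons share the same 2 fresh arrays, and control cultures are part of the mean on days 1 and 2 only. In the same comparisons, 3 of 7 genes were called on day 2 (21.6% of all genes), 4 on day 3 (22.2%), 4 on day 4 (23.2%), 5 on day 5 (24.2%) and 5 on day 7 (34.5%). Without any inducer, Mt2A was higher by 1.91 on day 1 (SE 0.43, adjusted p = 0.00772) and by 2.51 on day 2 (SE 0.43, adjusted p = 0.000253). Among uninduced cultures 3 of 7 genes were called on each day, Mt2A, Klf9 and Dusp1, beside 6.06% of all genes on day 1 and 22.2% on day 2. The day 1 call of Mt2A ended in each of the 4 fits without 1 array, with differences of 1.79 to 2.03 and adjusted p up to 0.0745.

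Klf9, a Krüppel-like factor induced by glucocorticoids and thyroid hormone, also rose by day 1 and then stayed up. Its fresh levels were 7.97 and 7.42. Control cultures reached 9.92 and 9.35 on day 1 and 10.15 and 10.01 on day 2, the highest group mean of all (10.08). Under LIF its levels were 8.53 and 8.76 on day 1 and 9.63 and 9.73 on day 7, under NGAL 9.18 and 8.64 and then 9.29 and 9.58, and under ANX 8.74 and 8.97 and then 9.80 and 10.26. All 40 cultured arrays were above both fresh arrays, with the highest at 10.53 in an NGAL array of day 3 whose replicate was at 9.29. Cultures exceeded fresh tissue by 1.32 on day 1 (SE 0.23, adjusted p = 0.000382), 1.91 on day 2, 1.77 on day 3, 1.45 on day 4, 1.66 on day 5 and 2.02 on day 7 (SE 0.24, adjusted p = 7.85e-07). The day 1 call ended without fresh replicate 2 (1.04, adjusted p = 0.0525). Uninduced cultures were higher by 1.94 on day 1 and 2.39 on day 2 (SE 0.30 in both). The rise rests on 1 of 3 probe sets: a dimmer one, with a mean level of 6.51, differed from fresh by 0.10 (SE 0.23) on day 1 and 0.21 (SE 0.24) on day 7, and one below the signal threshold of 5.79 by -0.15 (SE 0.14) and -0.27 (SE 0.15). Averaged over its probe sets, Klf9 differed by 0.42 on day 1 and by 0.65 on day 7, and both stayed called.

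Dusp1, the phosphatase that switches off the MAP kinases p38 and JNK, went the other way. Its fresh levels of 11.12 and 10.76 were the highest of all 42 arrays. In controls it was at 8.20 and 8.36 on day 1 and at 8.28 and 8.28 on day 2. Every cultured array lay below both fresh arrays, the highest at 10.70 in an NGAL array of day 7. Under LIF it was at 8.34 and 8.48 on day 1, 8.07 and 8.08 on day 2, 8.05 and 8.21 on day 3, 8.19 and 8.51 on day 4, 8.15 and 8.56 on day 5, and 8.81 and 9.21 on day 7. Under NGAL it was at 8.02 and 8.53, 8.02 and 8.91, 8.93 and 8.82, 8.58 and 9.09, 8.43 and 9.66, and 10.70 and 10.06 on the same days. Under ANX it was at 8.42 and 8.61, 8.03 and 7.77, 7.80 and 8.85, 8.0 and 8.44, 8.49 and 9.99, and 8.65 and 8.81. On day 7 the group mean was 10.38 under NGAL, 9.01 under LIF and 8.73 under ANX. Cultures fell by 2.57 on the log2 scale on day 1 (SE 0.32, adjusted p = 3.62e-06), a 5.93-fold drop, and the difference was -2.76 on day 2, -2.50 on day 3, -2.47 on day 4, -2.06 on day 5 and -1.56 on day 7 (SE 0.33, adjusted p = 0.000624). A second, dimmer probe set differed by -1.98 on day 1 and -1.63 on day 7 (SE 0.26 and 0.27).

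Immediate early genes, which are switched on within minutes of a stimulus and to which Dusp1 belongs, moved both ways. Of 20 such genes measured, Dusp1 aside, 5 rose and 5 fell in cultures of day 1 against fresh, beside 7.94% and 5.11% of all genes, with a median difference of -0.07 beside -0.01. For 2 of the 20, Fosl2 and Nr4a3, both fresh arrays were below the signal threshold, so these could pass only through cultures. Fos, a subunit of the AP-1 factor, was at 11.74 and 12.08 in fresh arrays and between 8.35 and 9.37 on day 1, a difference of -2.93 (SE 0.25, adjusted p = 1.35e-08). Fosb, another AP-1 subunit, was at 9.46 and 9.55 in fresh arrays and between 4.41 and 5.31 on day 1, below the signal threshold. With those arrays set at the threshold, its level in fresh tissue was at least 13.1-fold higher. No cultured array reached the threshold for Fosb, so it passed only through fresh tissue and its direction was largely fixed. Ier3 and Egr2 moved up, by 2.99 (SE 0.24) and 1.96 (SE 0.52). In uninduced cultures of day 1, 1 of the 20 rose and 5 fell, beside 3.80% and 2.26% of all genes. There Fos was at -3.15 (SE 0.32), Ier3 at 1.54 (SE 0.30) and Egr2 at 1.70 (SE 0.66, not called). Fresh samples had been digested and dissected just before RNA isolation, which cannot be told apart from the lack of culture. Of 7 other MAP kinase phosphatase genes 2 rose on day 1, Dusp14 by 1.05 (SE 0.18) and Dusp6 by 0.67 (SE 0.22, adjusted p = 0.0491), and 0 fell, beside 7.94% and 5.11% of all genes. Without an inducer 1 rose and 1 fell on day 1, beside 3.80% and 2.26%. There Dusp14 was at 0.88 (SE 0.23), Dusp9 at -1.70 (SE 0.39) and Dusp6 at -0.15 (SE 0.28, not called). From day 1 to day 7 0 of the 7 rose and 2 fell, beside 15.4% and 22.6%, Dusp9 at -1.32 (SE 0.22) and Dusp5 at -0.78 (SE 0.26).

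Sgk1, a kinase that raises sodium transport in the kidney, was called against fresh tissue only on days 5 and 7 by limma. It was at 8.41 and 8.72 in fresh arrays, and between 8.08 and 9.50 (median 8.92) in cultures of day 1, which overlap them. By day 7 its levels were 9.93 and 10.03 under LIF, 10.86 and 10.12 under NGAL and 9.67 and 9.66 under ANX, all above fresh. The difference was 0.33 on day 1 (SE 0.33, adjusted p = 0.590), 0.16 on day 2, 0.69 on day 3, 0.63 on day 4, 1.15 on day 5 (SE 0.34, adjusted p = 0.0150) and 1.48 on day 7 (SE 0.34, adjusted p = 0.00162). The day 5 call ended without fresh replicate 1 (1.00, adjusted p = 0.176) and without fresh replicate 2 (1.31, adjusted p = 0.0688), and the day 3 difference was called without ANX day 3 replicate 1 (0.94, adjusted p = 0.0280).

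Fkbp5 was slightly higher in culture, by at most 0.48 on the log2 scale in the daily means. Its levels were 9.49 and 9.45 in fresh arrays and between 9.57 and 10.16 (median 9.90) in cultures of day 1, all above fresh. On day 7 they were 9.35 and 9.64 under LIF, 10.32 and 9.85 under NGAL, and 9.71 and 9.74 under ANX, so that 1 LIF array lay below fresh. Cultures differed from fresh by 0.41 on day 1 (SE 0.11, adjusted p = 0.0160), 0.26 on day 2 (adjusted p = 0.104), 0.33 on day 3 (0.0466), 0.48 on day 4 (SE 0.12, adjusted p = 0.00403), 0.34 on day 5 (0.0362) and 0.30 on day 7 (0.0499). All 5 calls ended without fresh replicate 2 (adjusted p 0.0678 to 0.264), all but that of day 4 without fresh replicate 1 (0.139 to 0.182), and the calls of days 3, 5 and 7 also without several cultured arrays (up to 0.124). Averaged over both of its probe sets, Fkbp5 was not called on day 7 (0.25, adjusted p = 0.196). Quantile normalization again ended the calls of days 1, 3 and 5 (adjusted p = 0.0586, 0.0828 and 0.0774). Testing without the signal filter ended those of days 3 and 7 (0.0542 and 0.0573), and the day 7 call also ended without the variance trend (0.0521) and with the dap ratio as a covariate (0.0979). By inducer, the day 7 difference was 0.62 under NGAL (SE 0.14, adjusted p = 0.00183), 0.03 under LIF and 0.26 under ANX.

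In the daily means of all cultures, Tsc22d3 and Per1 were not called against fresh tissue by limma, and a missed threshold does not show that they did not differ. Tsc22d3 was at 10.28 and 10.21 in fresh arrays. In cultures of day 1 it ranged from 9.37 to 10.21 (median 9.84), with 1 control array between the fresh ones and the other 7 below both, and a difference of -0.39 (95% interval -0.69 to -0.08, unadjusted p = 0.0156, adjusted p = 0.0914). On day 7 it ranged from 10.07 to 10.64, and the difference was 0.09 (95% interval -0.23 to 0.41). Per1, a repressor in the circadian clock, was at 7.78 and 7.66 in fresh arrays and between 7.58 and 8.49 in cultures. Its differences ran from 0.10 on day 5 (95% interval -0.17 to 0.37) to 0.28 on day 3 (95% interval 0.01 to 0.55, adjusted p = 0.138), and the latter was called without ANX day 3 replicate 1 (0.35, adjusted p = 0.0459). Under NGAL alone Per1 was called on day 7 (0.52, SE 0.16, adjusted p = 0.0139).

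Against fresh tissue on day 7, taken by inducer, 4 of 7 genes were called under LIF (25.1% of all genes), 5 under NGAL (35.4%) and 3 under ANX (20.5%). Mt2A was higher by 5.46 under LIF (SE 0.43, a 44.1-fold difference), 3.41 under NGAL and 4.54 under ANX. Dusp1 was lower under LIF (-1.93, SE 0.40) and ANX (-2.21, SE 0.40), and at -0.56 under NGAL (95% interval -1.38 to 0.27, adjusted p = 0.290). Sgk1 was higher by 1.41 under LIF and 1.92 under NGAL, and at 1.10 under ANX (adjusted p = 0.0640).

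**Figure D2:**
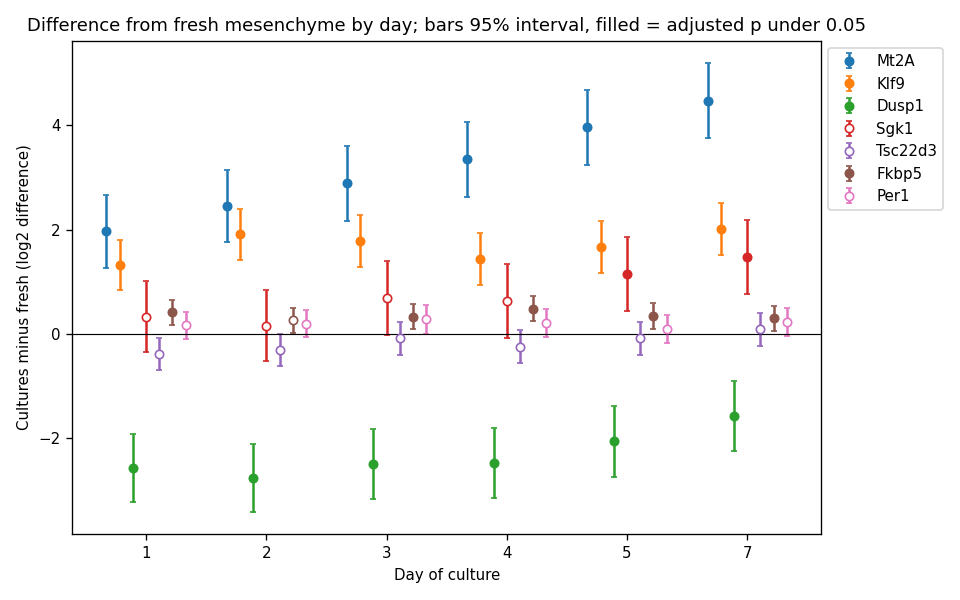
Difference of the mean of all cultures from fresh mesenchyme (y axis, log2) by day of culture (x axis) for the 7 genes; bars are 95% intervals and filled points had an adjusted p under 0.05. Control cultures are part of the mean on days 1 and 2 only. Mt2A went from 1.97 on day 1 to 4.47 on day 7, Klf9 stayed between 1.32 and 2.02, Dusp1 stayed below 0 on all days, and Sgk1 was called on days 5 and 7.

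Between day 1 and day 2, over the 4 cultures taken on both, 1 of 7 genes was called, beside 7.87% of all genes. This was Klf9, higher by 0.59 (SE 0.15, adjusted p = 0.0195). Its call ended in 5 of 16 fits that left out 1 array (second replicates of control and NGAL on day 1 and of LIF, NGAL and ANX on day 2; 0.52 to 0.56, adjusted p up to 0.0750), with the mean of its probe sets (0.24, adjusted p = 0.0682), and also with the spike-in ratio as a covariate (0.38, adjusted p = 0.134).

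Between day 1 and day 7 of the induced cultures 5 of the 7 genes were called and all 5 were higher on day 7, where 38.1% of all genes were called and 15.4% were called higher. Mt2A was higher by 2.48 (SE 0.25, adjusted p = 6.89e-08), Sgk1 by 1.11 (SE 0.24), Dusp1 by 0.97 (SE 0.23), Klf9 by 0.91 (SE 0.17) and Tsc22d3 by 0.58 (SE 0.11, adjusted p = 0.000186). For each of these 5 the 6 arrays of day 7 lay above the 6 of day 1, as they did for 4.09% of all genes. Fkbp5 differed by -0.19 (SE 0.08, adjusted p = 0.0694) and Per1 by 0.10 (SE 0.09). The Fkbp5 difference was called without LIF day 7 replicate 2 (-0.24), NGAL day 7 replicate 1 (-0.27) or ANX day 1 replicate 1 (-0.23), and its other probe set gave -0.54 (SE 0.14). Averaged over both probe sets, Fkbp5 was called lower on day 7 (-0.37, limma adjusted p = 0.00679). For Dusp1 the dimmer probe set gave 0.30 (SE 0.19). For Klf9 the dimmer ones gave 0.11 (SE 0.17) and -0.16 (SE 0.11). The mean of its probe sets gave 0.29 and stayed called (limma adjusted p = 0.0222). Taken by inducer, 3 of 7 genes were called under LIF (10.9% of all genes), 3 under NGAL (15.5%) and 2 under ANX (13.8%). Mt2A rose from day 1 to day 7 by 2.83 under LIF, 2.12 under NGAL and 2.50 under ANX (SE 0.43 in each). Dusp1 rose under NGAL, by 2.10 (SE 0.40, adjusted p = 0.00109), with 0.60 under LIF and 0.21 under ANX, where it was not called. Sgk1 rose under NGAL by 1.78 (SE 0.42), with 1.15 under LIF (adjusted p = 0.0751) and 0.41 under ANX. Whether the time course differed by inducer was tested as inducer by day, where 0 of 7 genes were called beside 0.0351% of all genes (4 of 11388, and 660 at an unadjusted p under 0.05). The lowest unadjusted p of the 7 was 0.0394, for Klf9, and adjusted p ran from 0.810 to 1.

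The 3 inducers were compared with uninduced control over days 1 and 2, with 4 arrays on each side. Under LIF 2 of 7 genes were called, beside 24.0% of all genes. Klf9 was lower under LIF (-0.98, SE 0.21, adjusted p = 0.00175), as was Per1 (-0.36, SE 0.11, adjusted p = 0.0248). Under ANX 2 of 7 were called, beside 20.3%, with Klf9 at -0.77 (SE 0.21, adjusted p = 0.0115) and Fkbp5 at 0.38 (SE 0.10, adjusted p = 0.0108). Under NGAL 0 of 7 were called by limma, beside 0% of all genes, although 799 genes had an unadjusted p under 0.05, among them Klf9 at -0.45 (unadjusted p = 0.0407). Mt2A differed from control by 0.38 under LIF (95% interval -0.24 to 1.00), -0.42 under NGAL (-1.04 to 0.21) and 0.03 under ANX (-0.60 to 0.65).

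Cell type markers and array quality moved with these contrasts. Over days 1 and 2 the stroma markers averaged 9.87 to 10.14 in control arrays, 8.30 to 9.16 under LIF, 8.65 to 9.42 under ANX and 9.34 to 9.72 under NGAL. Against control, 8 of 11 were called lower under LIF and 7 of 11 under ANX, and 5 of 8 erythroid markers were called lower under each. Of all genes, 12.6% were called lower under LIF and 9.12% under ANX. The dap ratio had a median of 1.97 in control, 1.24 under LIF and 0.97 under ANX, and 5S rRNA of 9.38, 7.17 and 7.08. With the dap ratio as a covariate Klf9 was at -0.86 under LIF and -0.62 under ANX, and both stayed called, as did Per1 under LIF (-0.37) and Fkbp5 under ANX (0.40). Tsc22d3 under LIF, at -0.27 and not called in the main fit, was called with this covariate (-0.33, limma adjusted p = 0.0412). The part of the cell types was not tested.

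Several of these calls rest on single arrays. That of Per1 under LIF ended in 5 of 8 fits without 1 array (control day 1 replicate 1, control day 2 replicate 1, LIF day 1 replicate 2 or either LIF day 2 array; -0.36 to -0.28, adjusted p up to 0.112). That of Klf9 under ANX ended without the first replicate of control on day 1 (-0.63), of ANX on day 1 (-0.72) or of ANX on day 2 (-0.67), and that of Fkbp5 without control day 2 replicate 2 (0.33) or ANX day 1 replicate 2 (0.32). Averaged over its 3 probe sets Klf9 was not called under LIF (-0.32, adjusted p = 0.0595) or ANX (-0.20, adjusted p = 0.234).

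Over the 6 days LIF and NGAL differed for 6 of the 7 genes, beside 41.7% of all genes. Mt2A was higher under LIF by 1.66 (SE 0.17, adjusted p = 2.72e-07), a 3.15-fold difference, and the other 5 were lower under LIF. Sgk1 differed by -0.65 (SE 0.17), Dusp1 by -0.59 (SE 0.16), Per1 by -0.35 (SE 0.07), Tsc22d3 by -0.22 (SE 0.08, adjusted p = 0.0215) and Fkbp5 by -0.22 (SE 0.06). Klf9 was at -0.12 (95% interval -0.37 to 0.12). By single days, Mt2A was called on day 3 (1.70, beside 9.50% of all genes), day 4 (2.23, 5.41%), day 5 (2.37, 2.00%) and day 7 (2.05, 3.28%). On days 1 and 2, with 0.167% and 2.57% of all genes called, its difference was 1.33 (adjusted p = 0.362) and 0.26. Fkbp5 was called on day 7 (-0.59, adjusted p = 0.0309), where Dusp1 was at -1.37 (adjusted p = 0.0557). The Tsc22d3 call ended in 5 of 24 fits that left out 1 array (second replicates of LIF on days 1 and 7 and of NGAL on days 2 and 5, or the first of NGAL on day 7), with adjusted p up to 0.0549.

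**Figure D3:**
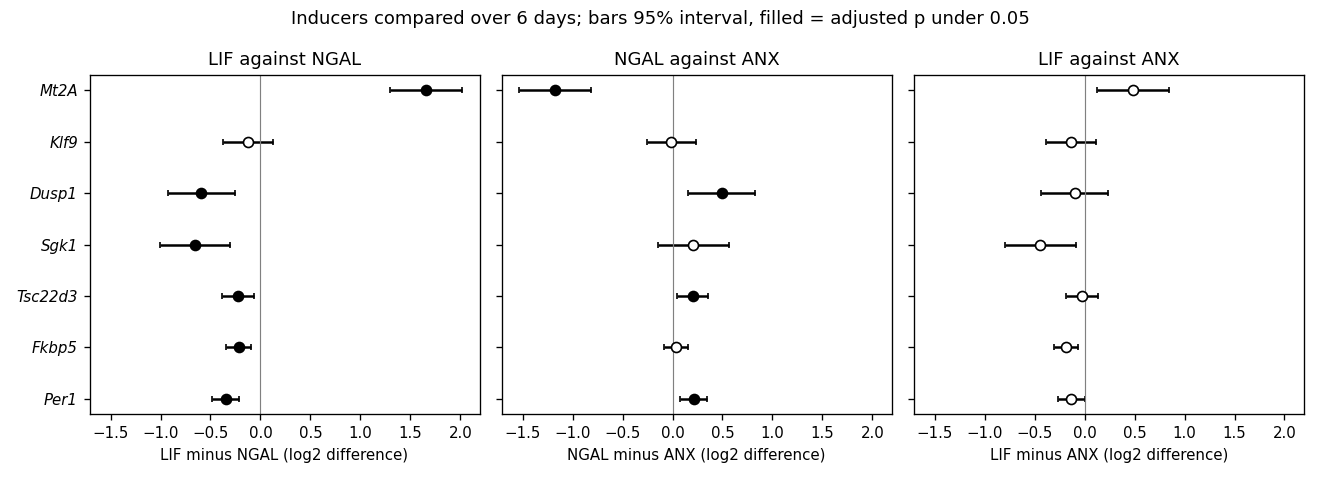
Differences between inducers over 6 days (x axis, log2) for the 7 genes (rows), with 12 arrays per inducer; bars are 95% intervals and filled points had an adjusted p under 0.05. Mt2A stood 1.66 higher under LIF than NGAL and 1.17 lower under NGAL than ANX, while no gene was called between LIF and ANX.

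NGAL and ANX differed for 4 genes, beside 37.5% of all genes: Mt2A at -1.17 (SE 0.17, adjusted p = 2.50e-05), Dusp1 at 0.49 (SE 0.16, adjusted p = 0.0204), Per1 at 0.21 (SE 0.07, adjusted p = 0.0136) and Tsc22d3 at 0.20 (SE 0.08, adjusted p = 0.0432). The Tsc22d3 call ended in 15 of 24 fits without 1 array and that of Dusp1 in 4, without the second NGAL replicate of day 2 or 5 or the first ANX replicate of day 3 or 5 (0.37 to 0.42). The mean of probe sets also ended the Dusp1 call (0.26, adjusted p = 0.121), and Tsc22d3 reached an adjusted p of up to 0.0994 in those fits. LIF and ANX differed for 0 of 7 genes by limma, beside 5.01% of all genes, with Mt2A at 0.48 (95% interval 0.12 to 0.84, unadjusted p = 0.0105, adjusted p = 0.113), Sgk1 at -0.44 (adjusted p = 0.139) and Fkbp5 at -0.18 (adjusted p = 0.0697). Mt2A was called there without the second replicate of LIF on day 7 (0.57), of ANX on day 4 (0.59) or of ANX on day 5 (0.61). Fkbp5 was called without the second replicate of LIF on day 7 (-0.21) or of ANX on day 5 (-0.22) or the first of ANX on day 3 (-0.20), and Sgk1 without ANX day 3 replicate 1 (-0.57). Cell type markers moved with these contrasts. Renal stroma markers, 11 measured, averaged 7.84 to 9.20 in LIF arrays, 8.0 to 9.42 in ANX arrays and 9.22 to 10.07 in NGAL arrays, and 10 of 11 were lower under LIF than NGAL. Skeletal muscle markers averaged 6.51 to 9.43 under LIF, 6.52 to 8.02 under ANX and 6.48 to 10.67 under NGAL, with 5 of 7 lower under LIF than NGAL. Of all genes, 20.3% were called lower under LIF than NGAL. Their part in the differences between inducers was not tested.

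Of other genes known to be induced by glucocorticoids, 27 were measured. In cultures of day 1 6 rose and 0 fell against fresh, beside 7.94% and 5.11% of all genes (median 0.12, beside -0.01). On day 7 15 rose and 1 fell, beside 15.9% and 18.6% (median 0.94, beside -0.04). Both fresh arrays were below the signal threshold for 4 of the 27, Pck1, Klf15, Bcl6 and Lcn2, which could pass only through cultures. Cebpb, a transcription factor of the C/EBP family, went from 6.40 and 6.95 in fresh arrays to between 8.51 and 10.95 on day 1 (3.03, SE 0.34, adjusted p = 1.12e-06). Bcl6, a transcriptional repressor, was at 5.33 and 5.61 in fresh arrays, below the signal threshold, and between 7.43 and 8.38 on day 1, at least 4.64-fold higher. Anxa1, the anti-inflammatory annexin A1, rose by 2.29 (SE 0.46) and Cebpd, of the same family as Cebpb, by 1.83 (SE 0.49). In uninduced cultures of day 1, 3 of the 27 rose and 0 fell, beside 3.80% and 2.26% (median 0.29, beside 0.001). Cebpb was called there, at 1.87 (SE 0.43), while Anxa1 at 1.09 (SE 0.59) and Cebpd at 0.96 (SE 0.62) were not. Cebpb, Bcl6, Anxa1 and Cebpd are also known as targets of cytokines and growth factors. From day 1 to day 7, 10 of the 27 rose and 2 fell, beside 15.4% and 22.6% of all genes. Pdk4, a kinase that holds back pyruvate oxidation, was below the threshold in all 6 induced arrays of day 1 and at least 3.12-fold higher on day 7. The sulfotransferase gene Sult1a1 was below it in 5 of 6 and at least 3.09-fold higher. Pdk4 was between 5.01 and 6.74 on day 1, when its fresh levels were 6.19 and 6.23. Between LIF and NGAL, 1 of the 27 was higher under LIF and 16 were lower, beside 21.5% and 20.3% of all genes (median -0.44, beside 0.03), Sult1a1 among them.

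**Figure D4:**
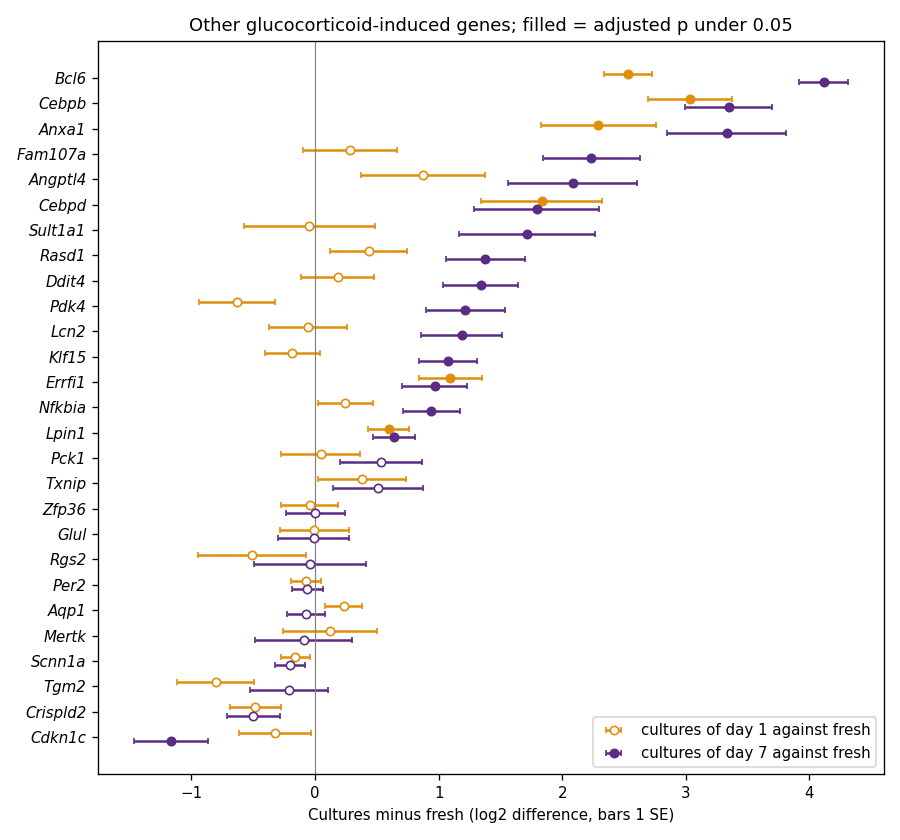
Difference of cultures from fresh tissue (x axis, log2, bars 1 SE) for 27 other glucocorticoid-induced genes (rows, ordered by day 7), on day 1 (orange) and day 7 (purple); filled points had an adjusted p under 0.05. On day 1, 6 rose and 0 fell, and on day 7, 15 rose and 1 fell.

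Of 16 genes listed as repressed by glucocorticoids, 10 were measured, and Il6, Il1b, Mmp13, Sele, Il1a and Csf2 were below the signal threshold in all groups. In 6 of the 10, Ptgs2, Ccl2, Cxcl1, Cxcl2, Mmp3 and Mmp9, both fresh arrays were also below it, so they could pass only through cultures and their direction was largely fixed. On day 1 2 of the 10 rose and 0 fell, and on day 7 5 rose and 0 fell against fresh, where 7.94% and 15.9% of all genes rose and 5.11% and 18.6% fell. Ptgs2, the inducible cyclooxygenase, was at 3.63 and 3.72 in fresh arrays, below the signal threshold, and between 5.25 and 8.94 on day 1, at least 1.87-fold higher. On day 7 it was higher by 2.86 (SE 0.38) than in the induced cultures of day 1. The adhesion molecule gene Icam1 rose by 1.32 on day 1 (SE 0.25), and Ccl2, a monocyte chemokine, by 2.92 from day 1 to day 7 (SE 0.32), with 3 of 6 day 1 arrays below the threshold. Without an inducer 0 of the 10 rose and 0 fell on day 1, beside 3.80% and 2.26% of all genes, with Icam1 at 0.31 (SE 0.32). Among 12 genes of the receptor and its chaperones, 1 rose and 1 fell on day 1, beside 7.94% and 5.11% of all genes, and 4 rose and 7 fell from day 1 to day 7, beside 15.4% and 22.6%. Nr3c1, the glucocorticoid receptor itself, was at 7.48 and 7.60 in fresh arrays and between 8.48 and 9.0 on day 7, and rose by 0.74 from day 1 (SE 0.13, adjusted p = 0.000126). Hsd11b2, the enzyme that inactivates natural glucocorticoids, fell by 1.53 on the log2 scale on day 1 (SE 0.21), while Hsd11b1, which regenerates them, rose by 1.24 from day 1 to day 7 (SE 0.17). Bag1, a co-chaperone, rose by 0.30 on day 1 (SE 0.10, adjusted p = 0.0412). Uninduced cultures of day 1 had 0 of the 12 higher and 1 lower, beside 3.80% and 2.26%. Hsd11b2 at -0.68 (SE 0.27) and Bag1 at 0.15 (SE 0.12) were not called there.

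Among other genes of the metal response, 11 were measured. On day 1 2 of them rose and 0 fell, beside 7.94% and 5.11% of all genes, the glutathione synthesis gene Gclc by 0.88 (SE 0.15) and the zinc importer gene Slc39a14 by 0.47 (SE 0.11). Without an inducer 0 of the 11 rose and 0 fell on day 1, beside 3.80% and 2.26%, with Gclc at 0.39 (SE 0.19) and Slc39a14 at 0.31 (SE 0.14). On day 7 4 rose and 0 fell against fresh, beside 15.9% and 18.6% (median 0.50, beside -0.04). From day 1 to day 7 the zinc importer gene Slc39a8 rose by 1.77 (SE 0.33) and Slc39a10 fell by 0.65 on the log2 scale (SE 0.20), with a list median of -0.05. Mt1, the neighbouring metallothionein gene, was below the signal threshold, at 4.92 and 5.00 in fresh arrays and between 4.76 and 5.30 on day 7, so its level was not resolved. Mt3, another metallothionein gene, was above the threshold, at 7.53 and 7.78 in fresh arrays and between 7.41 and 7.91 on day 7. It differed from fresh by -0.09 on day 1 (SE 0.11) and -0.03 on day 7 (SE 0.11), and was not called on either day. Of 13 clock genes beside Per1, 3 rose and 1 fell on day 1, beside 7.94% and 5.11%. Bhlhe40 rose by 1.40 (SE 0.39) and Nfil3 by 0.81 (SE 0.18), and Tef was at -0.59 (SE 0.15). Bmal1 also rose, from fresh arrays below the signal threshold. Uninduced cultures of day 1 had 0 of the 13 called, beside 6.06% of all genes. There Bhlhe40 was at 1.00 (SE 0.50), Nfil3 at 0.15 (SE 0.23) and Tef at -0.38 (SE 0.19).

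The 7 genes did not share 1 pattern over the 21 group means, whose correlations are a description without a test. The highest Pearson r between any pair was 0.63, for Tsc22d3 and Sgk1, followed by 0.59 for Tsc22d3 and Dusp1 and 0.52 for Mt2A and Klf9, and the lowest was -0.39, for Klf9 and Dusp1. Among 11388 genes, those most like Mt2A were Abcg1 (r = 0.948), a cholesterol exporter, Inpp5b (0.933) and Znrf2 (0.932). Most like Per1 were Axl (0.954), Tnfrsf1b (0.950) and Tnks1bp1 (0.945), and most like Sgk1 were Pkd2 (0.908), Itm2c (0.894) and Cryab (0.887). Most like Fkbp5 were Pitpna (0.892), Snx7 (0.849) and Inf2 (0.847), and most like Klf9 were Cpt1a (0.880), the carnitine palmitoyltransferase of the liver type, Paxx (0.876) and Nat9 (0.870). Dusp1 and Tsc22d3 had lower values, with Smad7 (0.804), Col22a1 (0.800) and Gmds (0.782) most like Dusp1 and Acad11 (0.798), Ttc17 (0.790) and Npr2 (0.774) most like Tsc22d3.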

How the data were processed

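RNA of 42 samples of rat metanephric mesenchyme was measured on Affymetrix rat arrays. The authors' deposited table holds intensity values on a linear scale (7.6 to 17972), made with RMA per the submitters' processing notes, with no version given, and log2 was taken here. The platform's table gave 1 gene to 20832 of 31099 probe sets, several to 436 and none to 9831. Each gene took its probe set with the highest mean. Genes were tested when their highest group mean exceeded log2 5.79 (intensity 55.2), the 40th percentile over every probe set and array; arrays have no read depth, and this stands for signal over background.

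R 4.3.3 with limma 3.58.1 fitted 21 group means to the 42 arrays, leaving 21 degrees of freedom, with empirical Bayes variances and a trend, adjusted by Benjamini-Hochberg over 11388 genes. The code was tested on simulated data. Text tables were handled with Python 3.11.15, pandas 2.3.3 and numpy 2.4.6. With 2 replicates a group, their number limits the precision. Replicate numbers were not taken as pairs, since the labels state no pairing. Deviations of same-numbered arrays correlated from -0.65 to 0.74 over 210 pairs of groups, with a median of 0.07 and 88 pairs over 0.1. The dap ratio also differed within some groups, as in LIF on day 2 (0.88 and 2.16) and ANX on day 7 (1.17 and 2.20), beside 1.06 and 1.08 in fresh arrays.

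The 8 genes and the gene lists were chosen with earlier results of these data known. Beside them the text names some of the genes that a rule picked per list. It took the largest absolute differences, up to 4 called in cultures of day 1 against fresh and up to 2 in day 7 against day 1. Others so picked, among them most markers of cell types, are not printed. The text also names 3 genes most like each of the 7 by Pearson r. Lists were glucocorticoid-induced, glucocorticoid-repressed, receptor and chaperone, metal response, immediate early, clock and MAP kinase phosphatase genes, and markers of nephron progenitors, stroma, ureteric bud, endothelium, macrophages, erythroid cells, skeletal muscle, and adipocytes and cartilage. Alternatives were other filters, quantile normalization again, the mean of probe sets, no variance trend, the dap ratio as a covariate, a replicate block and each array left out, and apply to the 7 genes and the counts; they were not run for comparisons of single inducers or single days, nor for genes of the lists. Where a gene's low side was below the threshold, its fold is a lower bound against the threshold, given without a p. Promoters were read from RefSeq (GRCr8).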

Additional observations from a re-analysis of the deposited data

How the results depend on the processing

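No called difference of the 7 genes changed sign in any alternative. Over their single values, 1462 of the fits that left out 1 array kept their side of the threshold, 66 lost a call and 12 gained one; under other settings the numbers were 816, 14 and 3. Called genes of the 7 went with the mean of probe sets to 0 for day 2 against day 1, 1 for LIF and 1 for ANX against control, and 1 for LIF against ANX, and with the dap ratio as a covariate to 0 for day 2 against day 1. Over all genes that covariate gave 1673 for uninduced day 2 against fresh and 289 for day 2 against day 1. NGAL against control gave 1 gene without a filter or with the mean of probe sets, and inducer by day gave 0 with the stricter filter, 2 with the mean of probe sets and 7 with a replicate block, which changed no call of the 7 genes. With 1 array left out, all-gene counts ran from 180 to 504 and 917 to 1185 for uninduced days 1 and 2, 440 to 1488, 907 to 2531, 1113 to 2735, 1119 to 2550, 1247 to 2766 and 2139 to 4078 for cultures of days 1, 2, 3, 4, 5 and 7 against fresh, 195 to 1253 for day 2 against day 1, 1528 to 2842, 0 to 15 and 1115 to 2579 for LIF, NGAL and ANX against control, 291 to 976 for LIF against ANX and 0 to 72 for inducer by day. Counts of the 7 then ran from 2 to 4 on day 1 and 3 to 5 on day 5 against fresh, 0 to 1 for day 2 against day 1, 1 to 2 for LIF and for ANX against control, 0 to 2 for LIF against ANX and 2 to 4 for NGAL against ANX. Omitting a fresh array leaves 1, so contrasts with fresh rest on its spread being that of other groups. The causes were not tested.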

Other observations

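Ureteric bud markers, 9 measured, averaged 4.96 and 5.05 in the fresh arrays, below the signal threshold, and 6.29 to 7.74 on day 7, when 6 had risen against fresh tissue, beside 15.9% of all genes. For 6 of the 9, Krt8, Krt18, Krt19, Epcam, Cdh1 and Emx2, both fresh arrays were below the threshold, and these passed the filter only through cultures, which largely fixes their direction. From day 1 to day 7 Emx2, a homeobox gene of the bud and of renal epithelium, rose at least 4.34-fold and Epcam, an epithelial adhesion molecule, at least 11.2-fold, with 6 and 5 of the 6 day 1 arrays below the threshold. These genes are also known in nephron epithelia.

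Against fresh tissue, 7.94% of all genes rose and 5.11% fell on day 1, and 15.9% rose and 18.6% fell on day 7. Of 8 macrophage markers measured, 0 rose and 0 fell on day 1 and 1 rose on day 7 against fresh, while Ptprc and Csf1r stayed below the threshold in all groups. Of 6 adipocyte and cartilage markers, 0 rose and 0 fell on day 1 and 1 fell on day 7, and Pparg, Fabp4 and Adipoq stayed below the threshold.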
